A study of Mus musculus with 2 samples.

Results

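The genes described here are 47 interferon-induced genes and regulators of the interferon response, followed in a pair of mouse teratoma pools. Members were taken from a list of gene symbols, and each was read from array probe sets whose annotation names that gene alone. Of the 47 genes, 45 had such a probe set (67 probe sets), of 12393 genes on the array named in this way. The B6 ES pool was RNA of tumours formed by embryonic stem (ES) cells of the C57BL/6 (B6) strain. The EiPS pool was RNA of tumours that the EiPS line formed, induced pluripotent stem cells labelled 1E12 iPS and also of the B6 strain. The submitters' design text calls the EiPS tumours regression teratomas. Both cell types had been placed under the skin of male B6 mice, so the host was of the same strain in both groups. Tumours were taken 6 weeks later, and RNA of 2 tumours was combined for each array. There was 1 array per group, so no difference below has a replicate check or a test, and each compares these 2 RNA pools only. Neither the age of the hosts nor the number of tumours that regressed is given in the sources used here.

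A teratoma is a tumour of mixed differentiated tissues that pluripotent stem cells form after transplantation, and it also holds host blood vessels and blood cells. All 18 markers checked for derivatives of ectoderm, mesoderm and endoderm were above the signal floor on both arrays, but several of them differed between the pools by more than any of the 44 interferon genes that could be compared. All 6 endoderm markers had the higher signal in the EiPS pool, by 0.42 to 3.46 on the log2 scale. Alb, the liver's serum albumin, had signals of 86.1 (B6 ES) and 946 (EiPS), the upper end of that range, and Sftpc, a lung surfactant protein, of 104 and 682, 6.57-fold higher. The mesoderm list was split, 3 higher and 3 lower. Its skeletal muscle genes Myh1 (7634 and 1466) and Tnnt3 (6740 and 1838) were 5.21-fold and 3.67-fold lower, and the cartilage gene Col2a1 was 2.97-fold higher. Among ectoderm markers 4 of 6 were higher, with Gfap of astrocytes 1.91-fold higher and Nefl of neurons 2.77-fold lower. The pools thus differed in tissue markers along with the interferon genes, and the part of this in the differences below was not tested. In bulk tumour RNA, fewer cells of a type and less RNA per cell cannot be told apart.

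Interferons are secreted proteins through which cells answer infection and tissue damage. Type I interferons bind the Ifnar1 and Ifnar2 receptor, and gamma interferon binds Ifngr1 and Ifngr2. Both receptors use Janus kinases to activate STAT proteins. After a type I signal, a complex that holds Stat2 and Irf9 binds DNA at the interferon-stimulated response element and switches on antiviral genes. A gamma signal acts through gamma-activated sequences and induces Irf1, guanylate-binding proteins and immunity-related GTPases. Many genes answer both signals, so the 4 role groups used below (type I antiviral effectors and sensors, gamma-type GTPases with Ifi30, IRF factors with Stat2, and receptors with kinases) are a convention.

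Signals of the interferon genes were mostly a little higher in the EiPS pool, and few of them differed strongly. Of 44 members that could be compared, 38 were higher in the EiPS pool by any amount and 6 were lower. Over all 10953 genes compared, 56.2% were higher and 43.8% lower. The members' median log2 difference (EiPS pool less B6 ES pool) was 0.42, against 0.07 over all genes, and 38 of the 44 lay above that median of all genes (50.0% of all genes do). At 2-fold the picture was different. Only Oas2 and Zbp1 were at least 2-fold higher, 4.55% of the members compared, a share near the 5.79% of all genes. No member was at least 2-fold lower, against 3.05% of all genes. At 1.5-fold, a step added after the values were seen, 10 members were higher (22.7%, against 15.2% of all genes) and none was lower (9.32% of all genes). Adar and Ifnar2 lay just outside that step, at 1.498-fold each, and the nearest member inside it was Gbp2, at 1.64-fold.

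The members' median difference was about as large as the spread between probe sets of a single gene. The log2 differences of probe sets of 1 gene had an SD of 0.39 (3799 genes), a spread that leaves out variation between tumours, arrays and labelling. By that measure 24 members were higher by more than 1 SD, 19 were within 1 SD of no difference, and 1 (Jak1) was lower by just over 1 SD. Over all genes compared, the upper quartile of differences was also 0.39 and the lower quartile -0.24. This SD is pooled over all signals. By mean signal, the SD was 0.54 under 100, 0.36 from 100 to 1000 and 0.30 over 1000, so dim members are less well measured. Signals under a floor of 26.0, set from receptor genes held to be silent in these tissues, were raised to it before a fold was taken. Of the 45 members with a probe set, only Irf4 was under the floor on both arrays and could not be compared. In the plot of signals, most lines run to the right from the B6 ES pool to the EiPS pool, and those of Ifit2, Eif2ak2, Irf2, Stat2, Ifngr2 and Jak1 run to the left.

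**Figure D1:**
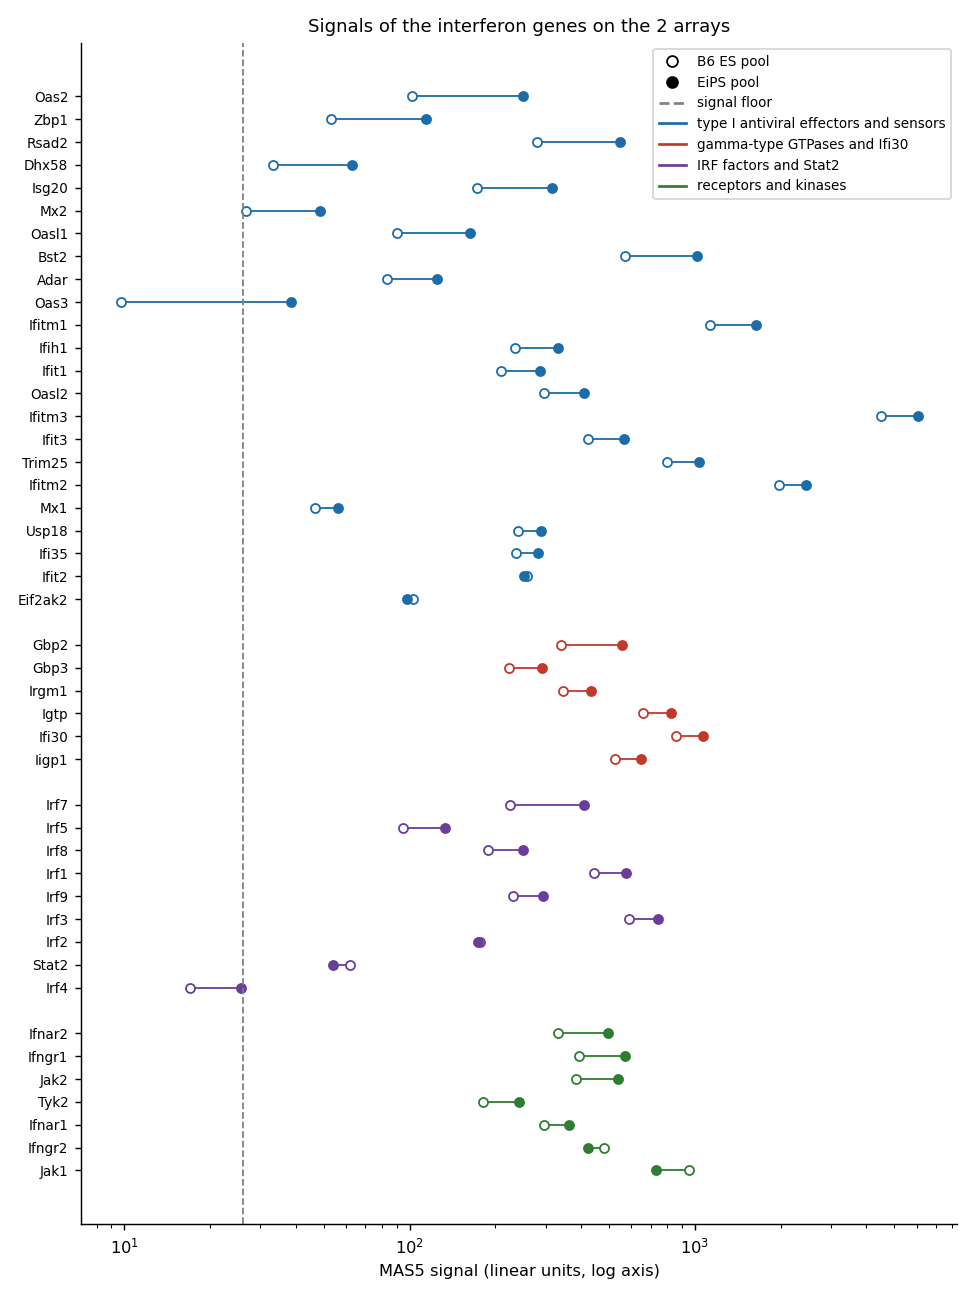
MAS5 signal (linear units on a log axis) of each member's brightest probe set in the B6 ES pool (open circles) and the EiPS pool (filled circles), 1 array each, coloured by role group; the dashed line is the signal floor of 26.0. The EiPS circle lies to the right for 38 of the 44 members compared, and Irf4 lies under the floor on both arrays.

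The type I antiviral effectors and sensors had the highest median of the 4 groups. Of 23 genes compared, 21 were higher in the EiPS pool (91.3%, against 56.2% of all genes). Past 1.5-fold were 8 of the 23 (34.8%, against 15.2% of all genes). Past 2-fold were 2 (8.70%, a share not far from the 5.79% of all genes). The group's median was 0.50. The oligoadenylate synthetases, which make a short RNA-like messenger that turns on RNA cleavage when they meet double-stranded RNA, differed most. Oas2 went from a signal of 102 (B6 ES) to 251 (EiPS), 2.46-fold higher. Oas3 was under the floor in the B6 ES pool (9.70) and just above it in the EiPS pool (38.4), so it was at least 1.48-fold higher. The related Oasl1, which dampens Irf7 translation, had signals of 90.2 and 163, 1.80-fold higher. Oasl2 had signals of 297 and 408, 1.37-fold higher. Outside the member list, the family's Oas1a (375 and 678) and Oas1b (48.6 and 86.2) were also higher, by 0.85 and 0.83 on the log2 scale, and Oas1g was not analysed here. All 6 genes of the family that could be compared were thus higher, with a median of 0.84.

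Sensors of foreign or misplaced nucleic acid, counted with the RNA-editing enzyme Adar, were higher in 4 of 5 cases, where 56.2% of all genes were higher. Zbp1, a sensor of Z-form nucleic acid that can start necroptotic cell death, had signals of 52.9 and 114, 2.16-fold higher. Its other probe set gave a like difference, 1.24 on the log2 scale. Under each of the 4 other scalings Zbp1 stayed under 2-fold (0.83 to 0.99), whereas Oas2 stayed past it (1.01 to 1.19). Dhx58, a regulator of the RNA helicase sensors, had signals of 33.3 and 62.7, 1.88-fold higher, and the other 2 probe sets of this gene were under the floor on both arrays. Ifih1, the sensor of long double-stranded RNA, had signals of 234 and 330, 1.41-fold higher. Adar, which edits adenosine in double-stranded RNA, had signals of 83.6 and 125. Eif2ak2, the kinase that halts translation when it binds double-stranded RNA, was the exception. Its brighter probe set had signals of 103 and 97.6, 1.05-fold lower, whereas the other was higher by 0.58 on the log2 scale. The direction of Eif2ak2 is therefore not settled by these arrays.

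Genes that act directly on viruses differed by less than 2-fold. Rsad2 (viperin), which makes a chain-terminating nucleotide, came nearest, with signals of 281 and 546, 1.94-fold higher. Its 3 probe sets differed by 0.09, 0.96 and 1.04 on the log2 scale, so a single one of them puts Rsad2 near no difference. Isg20, an exonuclease that degrades RNA, had signals of 173 and 316, 1.83-fold higher. Bst2 (tetherin), which holds budding virus at the cell surface, had signals of 567 and 1017, 1.79-fold higher. All 3 stood above the group median. The dynamin-like GTPases Mx1 and Mx2 had low signals. Mx2 went from 26.7, just above the floor, to 48.7, 1.82-fold higher, and Mx1 from 46.6 to 56.2, 1.21-fold higher. The size of the Mx2 fold therefore rests on a B6 ES signal close to the floor.

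The Ifit genes, whose proteins bind viral RNA that lacks the host cap modification, were divided. Ifit1 had signals of 209 and 287 (1.38-fold higher) and Ifit3 of 423 and 563 (1.33-fold higher). Ifit2, their neighbour, had nearly equal signals of 258 and 253. The Ifitm genes, whose membrane proteins hinder virus entry, differed by like amounts. Ifitm1 had signals of 1133 and 1640, 1.45-fold higher. Ifitm3 had signals of 4485 and 6050, 1.35-fold higher, and Ifitm2 of 1974 and 2460, 1.25-fold higher. All 3 Ifitm genes lay above the median of all genes.

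Isg15, a ubiquitin-like protein attached to other proteins, has no probe set of its own here. The probe set it shares with Gm9706 had signals of 378 and 561, 1.48-fold higher, and cannot be assigned to either gene. Usp18, which removes Isg15 and also blocks the type I receptor, had signals of 240 and 289, 1.20-fold higher. Uba7, the activating enzyme for Isg15 and not a member, had signals of 99.2 and 211 by its brightest probe set, 2.13-fold higher, and 0.28 to 1.09 on the log2 scale over 3 probe sets. Trim25, a ubiquitin ligase of RNA sensing, had signals of 796 and 1034, 1.30-fold higher, but its other 2 probe sets had nearly equal signals (504 and 506, and 63.2 and 63.2). Ifi35, an adaptor induced by interferon, had signals of 237 and 282, 1.19-fold higher. Ifi44 had no probe set of its own and was not analysed here.

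**Figure D2:**
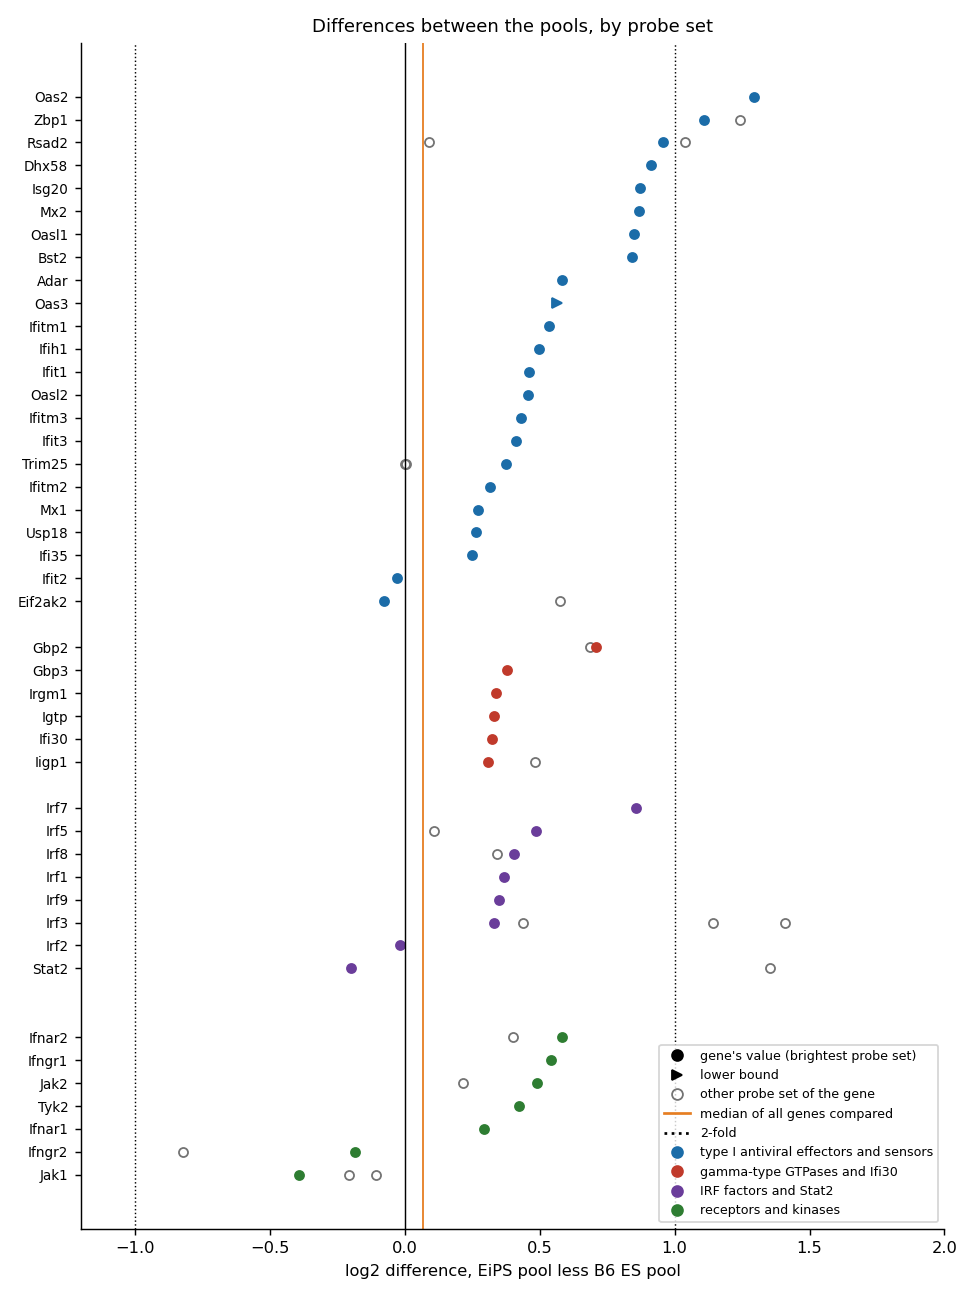
Log2 difference (EiPS pool less B6 ES pool) of each member by its brightest probe set (filled, coloured by role group) and by its other probe sets above the floor on 1 array or more (open grey). The orange line is the median of all genes compared (0.07), dotted lines mark 2-fold and the triangle is a lower bound by a brightest probe set. Only Oas2 and Zbp1 pass 2-fold by their brightest probe set. Open circles of Irf3 and Stat2 lie far from the filled ones, and the highest open circle of each of these genes is also only a lower bound.

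Promoter motifs of the members are given as a description. Members are listed as interferon genes, so a high share with interferon motifs can follow from that choice and is no result about the pools. RefSeq promoter windows of the GRCm38.p6 assembly, each 300 bases long with 250 bases before the annotated start of the gene and 50 after it, were at hand for 40 of the 47 members. Both strands were searched for the core of the interferon-stimulated response element, which is GAAA, any 2 bases, and GAAA again, and for TTCNNNGAA, the gamma-activated sequence, which reads the same on both strands. The first motif was in the windows of 16 of the 40 members (40.0%), against 3.99% of all 27025 genes with a window. By role, it was found in 10 of 19 type I genes, 4 of 5 gamma-type genes, 2 of 9 IRF and Stat2 genes, and 0 of 7 receptors and kinases. The gamma-activated sequence was in 13 of 40 members (32.5%), against 9.55% of all genes. Counted over windows, 16 of the 49 member windows and 3.44% of all 32851 windows held the first motif, and 13 of 49 and 8.30% the second. A match is a description of letters, not of a site in use.

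The stretches below are the 160 bases before the start of 4 members with a match to that core upstream of the start. They were chosen as the genes with the largest differences among members with that match and a signal above the floor on both arrays. Oas3, which has a match but only a bound for its difference, was therefore left out, as was Ifih1, whose only match lies after its start. Each is written 5′ to 3′ along the gene's own strand, with the matches in capitals, where TTTC in place of GAAA is the same motif on the opposite strand. They are shown because the capitals match the core of the interferon-stimulated response element, through which a type I signal is known to act. Whether these matches are in use was not tested.
Rsad2: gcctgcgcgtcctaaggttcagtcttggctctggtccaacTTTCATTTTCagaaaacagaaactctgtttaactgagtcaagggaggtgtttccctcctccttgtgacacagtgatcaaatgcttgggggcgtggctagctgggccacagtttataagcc
Bst2: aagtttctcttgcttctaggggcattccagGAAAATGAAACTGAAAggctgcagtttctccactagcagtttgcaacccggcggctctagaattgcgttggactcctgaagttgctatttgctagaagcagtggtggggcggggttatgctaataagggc
Gbp2: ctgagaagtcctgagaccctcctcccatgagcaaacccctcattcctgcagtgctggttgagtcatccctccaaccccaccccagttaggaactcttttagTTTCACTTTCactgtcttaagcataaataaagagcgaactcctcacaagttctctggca
Ifit1: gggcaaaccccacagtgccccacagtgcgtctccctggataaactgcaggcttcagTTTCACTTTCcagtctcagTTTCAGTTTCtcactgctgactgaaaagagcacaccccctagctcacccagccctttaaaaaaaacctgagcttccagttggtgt

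The Rsad2 stretch is chr12:26456453-26456612 on the minus strand, with 1 match whose first base is 120 bases before the start. The Bst2 stretch is chr8:71537473-71537632 on the minus strand, with 2 matches that overlap, at 130 and 124 bases before the start. A gamma-activated sequence, TTCCAGGAA, begins 136 bases before the start of Bst2 and overlaps the first of them. The Gbp2 stretch is chr3:142620503-142620662 on the plus strand, with 1 match 59 bases before the start. The Ifit1 stretch is chr19:34640729-34640888 on the plus strand, with 2 separate matches, at 104 and 85 bases before the start. Ifit3, next to Ifit1 on the chromosome, also holds 2 matches, and the Ifit2 window holds none of this motif.

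Members with and without the first motif did not separate by their differences. The 15 compared members that hold it had a median of 0.41, with 12 higher in the EiPS pool, and the 22 compared members with a window but no match had a median of 0.41, with 19 higher. Among genes other than members, the 322 with the motif had a median of 0.10 (60.6% higher) and the 8430 without it 0.06 (55.8% higher). For the gamma-activated sequence, the 13 compared members that hold it had a median of 0.37, with 10 higher, and the 24 without it one of 0.44, with 21 higher. The medians of other genes were 0.07 with this motif and 0.06 without.

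The gamma-type group was the most even of the 4. All 6 of its genes were higher in the EiPS pool, between 1.24-fold and 1.64-fold, with a median of 0.33, and none reached 2-fold. Over all genes, 56.2% were higher and 5.79% were at least 2-fold higher. Gbp2, a guanylate-binding protein that coats bacteria and parasite vacuoles, had signals of 339 and 554, 1.64-fold higher, and its other probe set differed by 0.69 against 0.71 on the log2 scale. Gbp3 of the same family had signals of 224 and 291, 1.30-fold higher. The immunity-related GTPases, which act on membranes around intracellular microbes, lay close together. Irgm1, the regulator among them, had signals of 344 and 435 (1.26-fold), Igtp of 657 and 826 (1.26-fold), and Iigp1 of 526 and 650 (1.24-fold). Ifi30, a lysosomal thiol reductase of antigen-presenting cells, had signals of 856 and 1073, 1.25-fold higher.

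GTPases of the same families outside the member list spread more widely. Gbp6 had signals of 52.8 and 132, 2.51-fold higher, and Gbp7 of 337 and 497, a log2 difference of 0.56. Ifi47 had signals of 241 and 353, a log2 difference of 0.55, and Irgm2 had nearly equal signals of 222 and 237. Over both sources, the 4 guanylate-binding proteins had a median of 0.64 and the 5 immunity-related GTPases one of 0.33.

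The IRF factors were higher in the EiPS pool in 6 of 7 cases, where 56.2% of all genes were higher, and Irf7 differed most. Irf7, which amplifies type I interferon production, had signals of 225 and 407, 1.81-fold higher, and was the only gene of its group past 1.5-fold. Irf5, a factor of macrophage activation, had signals of 95.1 and 133, 1.40-fold higher, and a log2 difference of only 0.11 by its other probe set. Irf8, needed for dendritic cells and other myeloid cells, had signals of 189 and 250, 1.33-fold higher, with 0.34 and 0.41 by its 2 probe sets. Irf1, the early gamma-induced factor, had signals of 444 and 573, 1.29-fold higher. Irf9, the DNA-binding partner of Stat2, had signals of 230 and 293, 1.27-fold higher. Irf3, a latent factor activated after RNA or DNA sensing, had signals of 590 and 742, 1.26-fold higher by its brightest probe set. Its 4 probe sets gave log2 differences from 0.33 to 1.41, the last of them only a lower bound. Irf2, an antagonist of Irf1, had nearly equal signals of 176 and 174.

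Irf4 and Stat2 gave no clear reading. Irf4, a factor of plasma cells and activated lymphocytes, had signals of 17.0 and 25.6 by its brighter probe set, both under the floor, so no fold is given. Stat2 had signals of 61.7 and 53.8 by its brighter probe set, 1.15-fold lower. The other probe set was under the floor in the B6 ES pool (24.8) and at 66.4 in the EiPS pool, higher by at least 1.35 on the log2 scale. With these included, 6 of the 8 compared genes in the group were higher, with a median of 0.36.

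Among receptors and kinases, 5 of 7 genes were higher (71.4%, against 56.2% of all genes). The exceptions were Ifngr2 and Jak1. Ifnar2, the signalling chain of the type I receptor, had signals of 330 and 495, 1.498-fold higher, and Ifnar1 of 295 and 362, 1.23-fold higher. Ifngr1, the ligand-binding chain of the gamma receptor, had signals of 392 and 571, 1.46-fold higher. Ifngr2, its second chain, went the other way with signals of 480 and 423, 1.14-fold lower, and a log2 difference of -0.82 by its other probe set. The 2 chains of the gamma receptor thus differed in sign.

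The Janus kinases also differed in sign. Jak1, which serves both receptors, had signals of 959 and 731, 1.31-fold lower, and all 3 of its probe sets were lower (from -0.39 to -0.11 on the log2 scale). Jak2, which pairs with Jak1 at the gamma receptor, had signals of 383 and 537, 1.40-fold higher. Tyk2, which pairs with Jak1 at the type I receptor, had signals of 181 and 242, 1.34-fold higher. The group median was 0.42, and no gene of the group reached 1.5-fold in either direction.

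The interferon ligands themselves were hardly measurable. Ifng, the gamma interferon, had signals of 1.57 and 2.28, and Ifnb1 of 2.37 and 9.32, both far under the floor. Of 5 alpha interferon genes with a probe set, Ifna1, Ifna4, Ifna5 and Ifna11 were under the floor on both arrays. Ifna2 was just above it, with signals of 33.0 and 29.1. The arrays thus give no ratio for Ifng, Ifnb1 or those 4 alpha interferons.

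Other genes of the pathway, from a list of 78 of which 50 could be compared, had a share of higher genes and a median much like those of the members. Of the 50, 44 were higher in the EiPS pool (88.0%, against 56.2% of all genes) and 6 lower, with a median of 0.47 (0.07 over all genes). Of these, 5 were at least 2-fold higher (5.79% of all genes were) and none was at least 2-fold lower. Socs3, a feedback inhibitor of cytokine receptors that also answers interleukin 6, had the largest difference. Its signals were 374 and 990, 2.65-fold higher, and its 3 probe sets agreed closely (1.38 to 1.47 on the log2 scale). Gbp6, Uba7 and Cxcl10 followed. Cxcl10, a chemokine for T cells, had signals of 107 and 226, 2.12-fold higher. Socs1, the feedback inhibitor of Janus kinases induced by gamma interferon, had signals of 26.6, just above the floor, and 46.4, 1.74-fold higher. The lowest were Mavs, the mitochondrial adaptor of RNA sensing (246 and 180, 1.36-fold lower), Cmpk2 (273 and 215, 1.27-fold lower), Ifrd1 (977 and 856, 1.14-fold lower) and Ifna2. The other probe set of Mavs differed by -0.03, and that of Cmpk2 by 0.14, on the log2 scale.

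**Figure D3:**
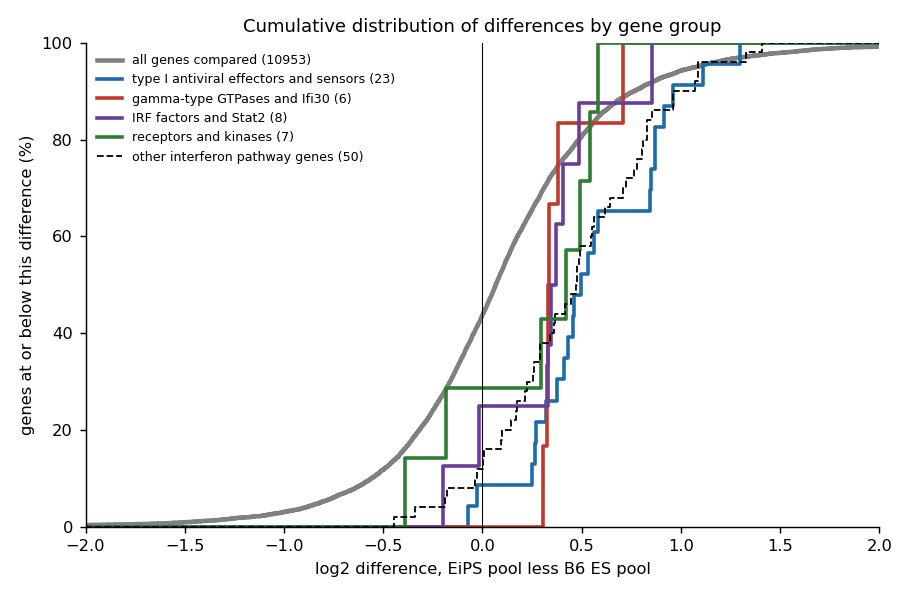
Share of genes (%) at or below each log2 difference (EiPS pool less B6 ES pool) for all 10953 genes compared (thick grey), the 4 role groups and the other interferon pathway genes (dashed). At a difference of 0 the grey curve stands at 43.8%, the gamma-type curve is still at 0 and rises within a narrow range, and the type I curve reaches the furthest right of the role groups.

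The list sets type I antiviral genes against gamma-type GTPases and regulators. The type I median exceeded the gamma-type median by 0.16 on the log2 scale. This gap was smaller under several alternatives, at 0.077 with log2(signal + 64), 0.085 with loess, 0.089 after quantile normalization and 0.098 with a floor of 100. It was largest, 0.18, without shared probe sets. At the 1.5-fold step, which was chosen after the values were seen and which 15.2% of all genes passed, 8 of 23 type I genes (34.8%) were higher. The same step was passed by 1 of 6 gamma-type genes (16.7%), 1 of 8 IRF and Stat2 genes (12.5%), and 0 of 7 receptors and kinases, among which Ifnar2 missed it at 1.498-fold. The gamma-type differences ran from 0.31 to 0.71 and the type I differences from -0.08 to 1.30. With 1 array per group and 6 gamma-type genes, no difference between the groups was tested.

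The size of the members' differences depends on how the arrays are brought to a common scale. The hybridization control transcripts, which are added to the labelled sample in fixed amounts, had higher signals on the EiPS array in all 18 probe sets, by a median of 0.28 on the log2 scale (0.11 to 0.42). When the arrays were scaled on these controls, a choice made after their signals were seen, the median of all genes moved from 0.07 to -0.21. The members' median then fell to 0.13, with 35 members higher and 9 lower, where 32.6% of all genes were higher. The 3 genes whose sign turned were Ifi35, Mx1 and Usp18. Scaling on the controls, like scaling to equal medians, multiplies an array by a constant, so apart from signals near the floor it cannot change the distance of the members' median from that of all genes, which was 0.35. Quantile normalization and loess, which can change it, gave distances of 0.36 and 0.35, with 38 of 44 members above the median of all genes under each.

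**Figure D4:**
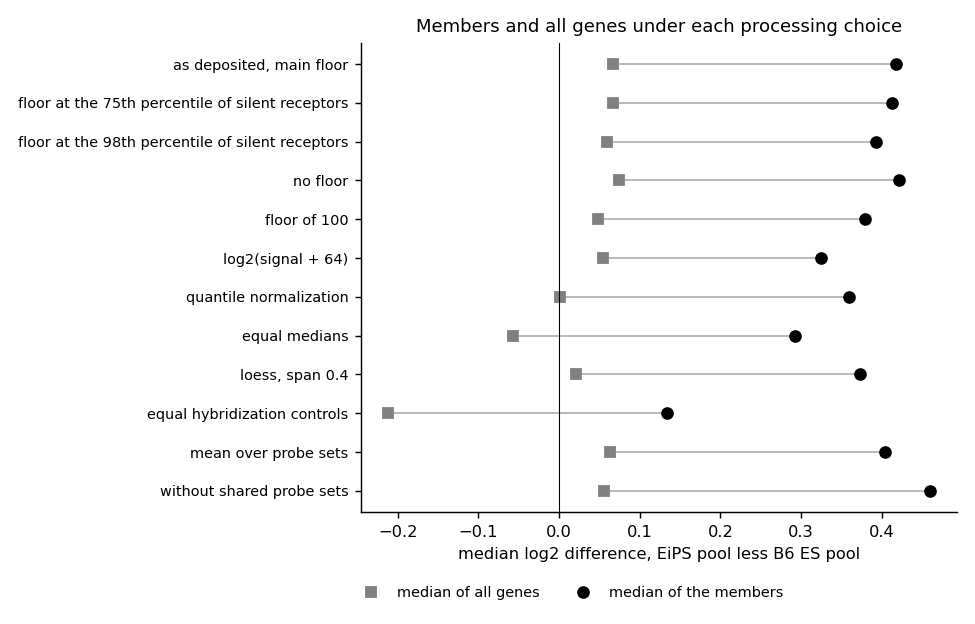
Median log2 difference (EiPS pool less B6 ES pool) of the members (black circles) and of all genes (grey squares) under the main processing and 11 alternatives. Both medians shift together with the scaling; the gap between them lies from 0.27, with 64 added to each signal before the log, to 0.40, without shared probe sets, and is near 0.35 in most others.

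The members were also set beside genes of like signal. All genes with a mean signal under 100 had a median of 0.22, and those over 1000 a median of -0.03, so dim genes leaned towards the EiPS pool. The members' median exceeded that of all genes in every class, though not every member did. Above the class median were 5 of 6 members under 100, 13 of 16 from 100 to 300, 17 of 19 from 300 to 1000 and 3 of 3 over 1000. The 6 members under 100 had a median of 0.72. The 16 members from 100 to 300 had a median of 0.41, against 0.13 for all genes of that class, and the 19 from 300 to 1000 had 0.38, against 0.03. The 3 members over 1000, the Ifitm genes, had a median of 0.43. RNA quality, as the array can show it, was alike in both pools, with 3′ to 5′ signal ratios of 1.35 and 1.49 for Actb and of 0.829 and 0.798 for Gapdh.

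Members that lie near each other on a chromosome did not always differ alike. The Ifitm genes and Irf7, within 300 kb steps of each other on chromosome 7, differed by 0.32 to 0.86. Ifnar1 and Ifnar2 had higher signals and Ifngr2, in the same cluster on chromosome 16, was lower. Oas2 and Oas3 on chromosome 5 were both higher, as were Oasl1 and Oasl2 on the same chromosome. In the Ifit cluster on chromosome 19, differences ran from -0.03 for Ifit2 to 0.46 for Ifit1.

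Many members are expressed strongly in blood cells and vessels, and in several lists most markers of these were also higher in the EiPS pool. Over all genes compared, 56.2% were higher, with a median of 0.07. Pan-leukocyte markers had 8 of 10 genes higher, with a median of 0.38 and summed signals of 3555 and 4846 in the B6 ES and EiPS pools. Their largest differences were 0.94 for Cd52, 0.66 for Rac2 and 0.66 for Laptm5. Macrophage markers had 10 of 15 higher (66.7%), a median of 0.24 and summed signals of 16177 and 23261, of which Lyz2 made 4103 and 7924. Msr1, Cd68 and Lyz2 were higher by 1.47, 1.06 and 0.95, while Csf1r and Adgre1 differed by -0.14 and -0.05. Endothelial markers had 10 of 12 higher, with a median of 0.54 and summed signals of 4687 and 5697, and Vwf, Robo4 and Cldn5 differed by 1.01, 0.91 and -0.89. Their part in the interferon gene differences was not tested.

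T cells and natural killer cells can themselves make gamma interferon, and their markers had low signals. In the T cell list 7 of 14 genes with a probe set were under the floor on both arrays, among them the defining genes Cd3d, Cd4 and Cd8b1. Other defining genes were a little above it on both arrays, Cd3e with signals of 31.8 and 33.3, Cd3g with 42.5 and 32.8, and Cd247 with 29.9 and 37.1. The 7 compared had a median of 0.43 and summed signals over the list of 275 and 409. Il7r, Cd8a and Cd28 were higher by 1.43, at least 0.61 and at least 0.45, whereas Cd3e differed by 0.07 and Cd3g by -0.37. In the list of natural killer and cytotoxic cells 7 of 14 were under the floor on both arrays, with summed signals of 307 and 355. Gzma and Nkg7 were higher by 1.20 and 0.76, and Klrk1 was lower by at least 0.82. Of 10 B and plasma cell genes, 5 were under the floor on both arrays, including Ms4a1, Cd79a and Pax5. Sdc1, Jchain and Blk differed by 1.01, 0.76 and -0.65, and the list's summed signals were 4383 and 5931. Most of those sums came from Xbp1 (3541 and 4347) and Sdc1 (665 and 1343), which are also expressed in secretory and epithelial cells. Irf4, the member that marks plasma cells, was under the floor as well. The neutrophil list had the largest median of the blood cell and vessel lists, 0.69 over 9 genes (7 higher, 2 lower). Its summed signals were 1960 and 5051, most of them from Ltf (1434 and 3901). S100a9, Ltf and S100a8 were higher by 2.58, 1.44 and 0.97, whereas Mpo differed by 0.14, Csf3r by -0.06 and Elane by -0.63. In bulk tumour RNA, the cell type that gave the S100a9, Ltf and S100a8 signals cannot be told. The values of Ngp, which is the list's median, Camp and Mmp8 are only lower bounds. Cxcr2 was under the floor on both arrays. Dendritic cell markers were split, 4 higher and 3 lower, with a median of 0.00 and summed signals of 537 and 691. That median is the value of Ccr7, counted as higher, and is only a lower bound. The signals of Ccr7 were 2.13 and 26.02, the second barely above the floor. Among these markers Itgax and Batf3 were higher by 1.19 and 0.95, and Cd209a was lower by at least 0.72. Here too their part in the differences of the members was not tested.

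**Figure D5:**
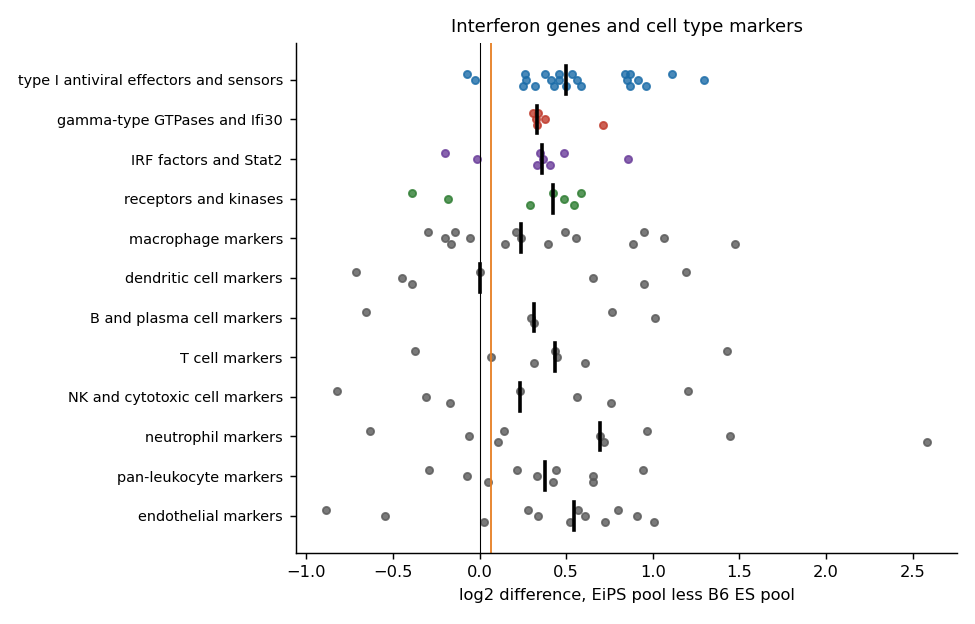
Log2 difference (EiPS pool less B6 ES pool) of each compared gene in the 4 role groups (coloured) and in the cell type marker lists (grey), with list medians as black bars and the median of all genes as the orange line. The gamma-type genes lie in a narrow band, and the marker lists spread on both sides of 0, with neutrophil markers reaching 2.58.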

How the data were processed

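Teratoma RNA was measured on Affymetrix mouse arrays, 1 array per group. The authors deposited 1 linear intensity (signal) per probe set, from the MAS5 method and Affymetrix Expression Console according to the submitters' processing notes, which name no version. The 2% trimmed mean was 500.2 on both arrays, so the authors' scaling was kept. Of 22690 probe sets, 20380 had 1 gene symbol, and 20351 of these were matched to RefSeq genes (GRCm38.p6, for names) by Entrez identifier. Where a gene had several probe sets, the brightest by mean log2 signal was used. The floor was the 90th percentile of signals over 72 probe sets of odour, pheromone, taste and trace amine receptors. Above it lay 79.0% (B6 ES) and 81.9% (EiPS) of probe sets, and 10953 of 12393 genes were compared. All members are named. From the pathway list, Socs1, Socs3, Ifng and the 4 largest differences in each direction are named, and from cell marker lists up to 3 genes with the largest differences. Further genes (Oas1a, Oas1b, Gbp7, Ifi47, Irgm2 and other interferons) were named after their values were seen. So were Csf1r, Adgre1, Ccr7 and further lymphocyte and neutrophil markers. Members and lists were chosen with earlier results of these data known. With 1 array per group no test was possible, and precision is limited by the number of arrays. The steps were tested on simulated data, with changes larger than those of the members and in genes well above the floor. That test does not cover differences as small as most here, or signals near the floor. Alternatives were other floors, log scales, scalings and probe set rules. Analyses used Python 3.11.15, pandas 2.3.3 and statsmodels 0.14.6.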

Additional observations from a re-analysis of the deposited data

How the results depend on the processing

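No paired analysis was possible because each group has 1 array. Of the 44 members compared, 39 kept their sign under all alternatives that could give a value. Eif2ak2 and Stat2 changed sign with probe sets averaged, and Ifi35, Mx1 and Usp18 with the arrays scaled on hybridization controls. The count of members at least 2-fold higher, 2 as deposited, was 1 with a floor of 100, quantile normalization, equal medians, loess and scaling on hybridization controls, and 0 with log2(signal + 64). Scaling on the controls gave 5 members at least 1.5-fold higher and 1 lower by that much. Medians of all members, type I, gamma-type, IRF and receptor genes were 0.29, 0.37, 0.21, 0.23 and 0.30 with equal medians, and 0.13, 0.21, 0.051, 0.075 and 0.14 with scaling on the controls. The type I median was 0.38 with log2(signal + 64), and the receptor median 0.31 after quantile normalization. Every other such value stayed within 1.5 times for a count or 0.1 for a median. That tolerance is wide for the gap between the type I and gamma-type medians, 0.16 as deposited, which ran from 0.077 to 0.18. Low signals limit several members. Oas3 differed by 0.96 under the lower percentile floor (75th) and by 1.98 under none. Zbp1 was 0.19 with a floor of 100 and 0.61 with log2(signal + 64). Dhx58, 0.91 as deposited, was 0.35 under the higher percentile floor (98th), 0.38 with log2(signal + 64) and 0.30 with probe sets averaged. Mx2, 0.87 as deposited, was 0.31 with log2(signal + 64). Among genes with several probe sets, Irf3 was 0.83 and Stat2 0.58 with probe sets averaged, and Irf3 1.14 without shared probe sets.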

Other observations

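The array's probe sets for poly-A control transcripts, which can be added to the RNA before labelling, went against the hybridization controls. Of 24 such probe sets, 2 were higher and 22 lower on the EiPS array, with a median log2 difference of -0.32 and a range from -1.17 to 0.10. Whether these transcripts were added to both samples in equal amounts is not given in the sources used here.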
